A study of Mus musculus with 12 samples.

Results

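Glucocorticoids are the steroid stress hormones of the adrenal cortex. Inside a cell they bind the glucocorticoid receptor, a transcription factor encoded by Nr3c1 that is held in the cytoplasm by heat shock protein chaperones until hormone arrives, and the bound receptor then raises or lowers the transcription of its target genes. In macrophages the hormone is best known for restraining inflammatory transcription, and inhaled ozone is known to raise circulating glucocorticoids acutely. This account follows 8 genes of that response, found by symbol among the 55291 gene symbols of the deposited table: the receptor Nr3c1, the hormone-activating enzyme Hsd11b1, and the target genes Fkbp5, Tsc22d3, Zbtb16, Klf9, Sgk1 and Dusp1. The question was whether they showed a stress hormone response 3 days after exposure.

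The cells were alveolar macrophages, which live in the airspaces and clear particles and surfactant. They had been obtained by flow sorting from lungs of female C57BL/6NJ mice 8 to 11 weeks old. One group of 6 mice had been exposed to ozone at 0.8 ppm, 4 h a day over 4 days in a row, and the other group of 6 had breathed filtered air on the same schedule. Lungs were taken 3 days after the last exposure, under urethane anaesthesia in both groups, and each of 2 flow-sort batches held 3 mice of each group. The markers of the sorting gate are not given in the sources used here.

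Each value is variance-stabilized expression on a log2 scale, given as the distance from the filtered-air mean, so that this mean is 0 for every gene. The abundance of a gene and the depth of a library were not kept, so levels of different genes cannot be compared, and differences of genes with few reads are compressed. Of all genes, 19633 had values above the lowest shared value in at least 6 of 12 mice and were tested. All 8 genes were among them, each above that value in 12 of 12 mice. So were all 10 listed alveolar macrophage markers, although their abundance could not be checked. Of these 10, 3 were called after ozone, beside 4.25% of all genes tested: Car4 (0.32, SE 0.0836, limma's adjusted p = 0.0461) and Chil3 (0.25, SE 0.0604, adjusted p = 0.0320) rose and Krt79 (-0.35, SE 0.0762, adjusted p = 0.0177) fell. The median of the 10 was -0.036, and their part in the results was not tested. These 3 were named after their values had been seen. RNA integrity numbers ran from 9.2 to 9.7 after ozone and from 8.9 to 9.7 in filtered air. In filtered-air mouse 4, which had the lowest integrity number, and in ozone mouse 4, the mean level of markers of other lung and blood cells lay above the group median in 12 of 12 lists. It did so in 11 lists in filtered-air mouse 5 and in 10 in ozone mouse 6.

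The 8 genes did not move in 1 direction after ozone. Dusp1 rose by 0.66 and Klf9 fell by 0.41, and the other 6 did not pass the threshold of an adjusted p under 0.05 in limma, with the Benjamini-Hochberg adjustment over all genes tested. The count of 2 in 8 stands beside 4.25% of all genes tested, and 4 of the 8 had an unadjusted p under 0.05, beside 16.7% of all genes tested. Of the 8 differences, 2 were above 0 and 6 below it, with a median of -0.11, against a median of -0.0033 over all genes tested. Without 1 mouse at a time the count ranged from 0, without filtered-air mouse 1, to 3, without filtered-air mouse 6, and it was 1 without filtered-air mouse 3 or 4 or without ozone mouse 3, 4 or 5. It was 0 after quantile normalization, with the variance trend and in each batch alone, where 3 mice stand against 3.

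**Figure D1:**
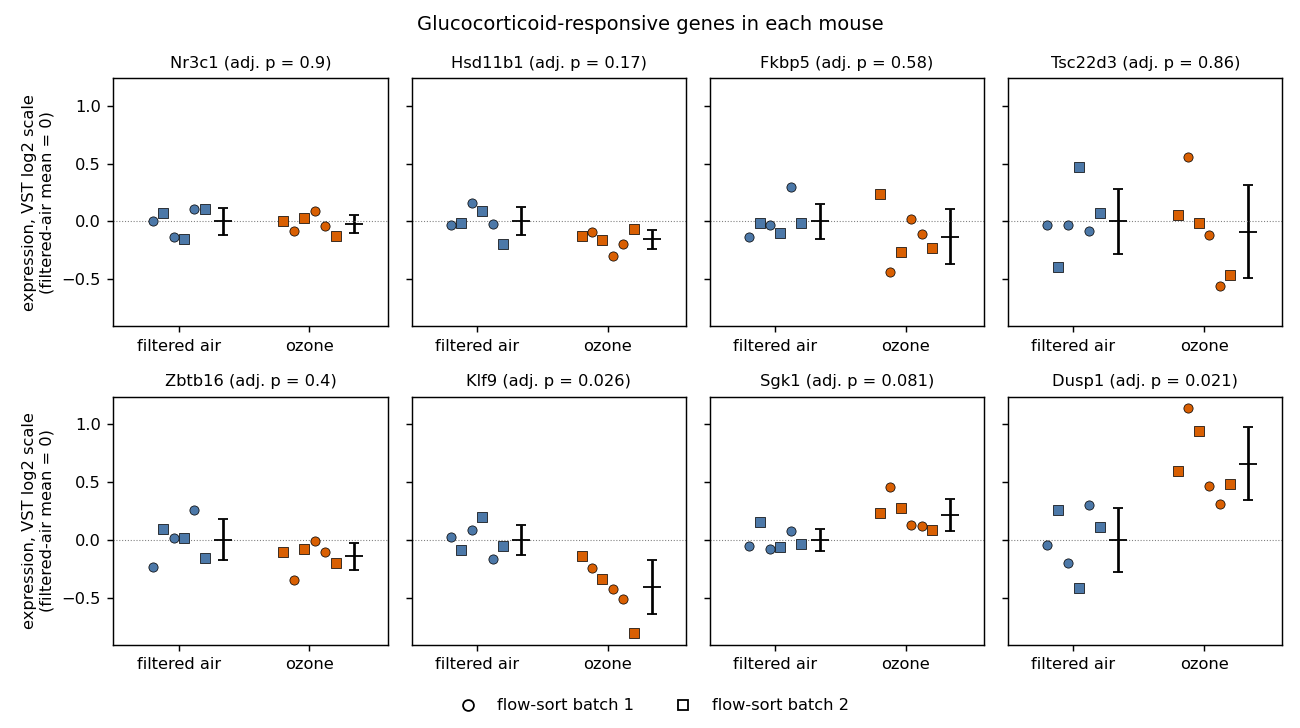
Expression of the 8 genes in each mouse on the variance-stabilized log2 scale, with the filtered-air mean at 0; points are mice (circles, flow-sort batch 1; squares, batch 2), bars are mean ± SD over 6 mice, and the adjusted p-values are limma's. The groups are separate in Dusp1 alone, and all 6 ozone mice lie below 0 in Klf9.

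The receptor gene itself did not differ detectably. Nr3c1 ran from -0.15 to 0.11 with a median of 0.037 in filtered air, and from -0.13 to 0.090 with a median of -0.021 after ozone. The ozone range lay inside the filtered-air range. The difference was -0.023 (SE 0.0564, 95% interval -0.14 to 0.098, limma's adjusted p = 0.898, n = 6 per group), and its sign changed on leaving out 1 mouse in 3 of 12 fits. It was -0.0021 in batch 1 and -0.043 in batch 2.

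Hsd11b1 encodes the 11-beta-hydroxysteroid dehydrogenase that regenerates active hormone from its inert keto form inside cells. It ran from -0.19 to 0.16 with a median of -0.015 in filtered air, and from -0.30 to -0.068 with a median of -0.14 after ozone. All 6 ozone mice lay below the filtered-air mean, but only 1 lay below every filtered-air mouse. The difference of -0.16 (SE 0.0577, 95% interval -0.28 to -0.033) did not pass after adjustment (limma's adjusted p = 0.166, n = 6 per group). It was -0.23 in batch 1 and -0.081 in batch 2. Without filtered-air mouse 6, the lowest of its group, it was -0.20 with limma's adjusted p = 0.0448. H6pd, which encodes the enzyme that supplies the cofactor of this reaction, differed by 0.047 (SE 0.0429, limma's adjusted p = 0.664).

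Fkbp5 encodes a co-chaperone that lowers the hormone affinity of the receptor and is among the most widely used readouts of receptor activity. Its values ran from -0.13 to 0.30 with a median of -0.024 in filtered air and from -0.44 to 0.23 with a median of -0.17 after ozone. The groups overlapped, and 4 of 6 ozone mice lay below the filtered-air mean. The difference was -0.13 (SE 0.100, 95% interval -0.35 to 0.082, limma's adjusted p = 0.581, n = 6 per group), so that a rise larger than 0.082 lay outside the interval. The difference was -0.22 in batch 1 and -0.043 in batch 2, and it was -0.065 without ozone mouse 2 and -0.067 without filtered-air mouse 5, the highest of its group.

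Tsc22d3, which encodes the glucocorticoid-induced leucine zipper GILZ, was the most variable of the 8. It ran from -0.40 to 0.47 with a median of -0.032 in filtered air, and from -0.56 to 0.56 with a median of -0.070 after ozone. High and low mice occurred in both groups: ozone mouse 2 lay above every filtered-air mouse, and ozone mice 5 and 6 lay below all of them. The difference was -0.091 (SE 0.170, 95% interval -0.46 to 0.27, limma's adjusted p = 0.858, n = 6 per group). The SD between mice of the same group, 0.347, lay at percentile 99.8 of the genes tested. The interval leaves room for a fall of up to 0.46 or a rise of up to 0.27, and leaving out filtered-air mouse 4 or ozone mouse 5 turned the sign. The difference was 0.0086 in batch 1 and -0.19 in batch 2.

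Zbtb16 encodes the zinc finger repressor PLZF, which is strongly induced by glucocorticoids in several tissues and also marks innate-like lymphocytes. It ran from -0.23 to 0.26 with a median of 0.016 in filtered air and from -0.35 to -0.012 with a median of -0.10 after ozone. All 6 ozone mice lay below the filtered-air mean, and ozone mouse 2, at -0.35, lay below every filtered-air mouse. The difference was -0.14 (SE 0.0779, 95% interval -0.31 to 0.025, limma's adjusted p = 0.397, n = 6 per group), and -0.084 without filtered-air mouse 5, the highest of its group. The listed markers of natural killer and innate lymphoid cells had a median difference of -0.065, with 7 of 9 lower and 0 called, 0 of them at an unadjusted p under 0.05. Their mean level ran from -0.14 to 0.043 after ozone and from -0.18 to 0.25 in filtered air, and their part in the Zbtb16 values was not tested. In sorted cells measured in bulk, fewer cells of a type and less RNA per cell cannot be told apart.

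Klf9 encodes a Krüppel-like transcription factor that glucocorticoids induce in many cell types and that is also an output of the circadian clock. It ran from -0.16 to 0.20 with a median of -0.014 in filtered air. After ozone it ran from -0.81 to -0.14 with a median of -0.38. Of the 6 ozone mice, 5 lay below every filtered-air mouse, and ozone mouse 1, at -0.14, overlapped the lowest filtered-air value. Klf9 fell by 0.41 (SE 0.0959, 95% interval -0.62 to -0.21, limma's adjusted p = 0.0258, n = 6 per group), against 1.84% of all genes called lower. The difference was -0.37 in batch 1 and -0.45 in batch 2, and -0.32 without ozone mouse 6, the lowest of its group (limma's adjusted p = 0.0237). It did not pass without filtered-air mouse 1, 3 or 4 or without ozone mouse 4 or 5, at adjusted p-values between 0.0528 and 0.0623 in limma, after quantile normalization (-0.33, limma's adjusted p = 0.119), with the variance trend (adjusted p = 0.0502) or in either batch alone (adjusted p = 0.123 and 0.428).

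The start of Klf9, a gene on chromosome 19 (chr19:23141226-23168129, GRCm38, plus strand), is shown because Klf9 is the gene called lower among the 8. The window holds 250 bases before and 50 after the RefSeq start site (chr19:23140976-23141275, GRCm38.p6), 5′ to 3′, with the core of a cyclic AMP response element (CRE) in capitals.
Klf9: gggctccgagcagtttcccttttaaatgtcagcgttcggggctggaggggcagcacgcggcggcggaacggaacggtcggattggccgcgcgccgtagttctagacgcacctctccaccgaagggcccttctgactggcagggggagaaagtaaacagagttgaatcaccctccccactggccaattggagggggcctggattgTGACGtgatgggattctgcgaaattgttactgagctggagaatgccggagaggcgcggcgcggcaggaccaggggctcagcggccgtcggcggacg
The core, TGACG, begins 46 bases before the start and occurs on either strand in 20.8% of all 32851 such windows of mouse genes. The glucocorticoid response element (GRE) was searched as the hexamer AGAACA and as a palindrome, that hexamer followed after any 3 bases by TGTTC. Neither was among these letters.

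Sgk1 encodes a serum- and glucocorticoid-regulated kinase that acts on ion channels, ubiquitin ligases and FOXO factors. It ran from -0.080 to 0.16 with a median of -0.045 in filtered air and from 0.081 to 0.46 with a median of 0.18 after ozone. All 6 ozone mice lay above the filtered-air mean and 3 above every filtered-air mouse. The difference of 0.22 (SE 0.0646, 95% interval 0.077 to 0.35) fell short of the threshold after adjustment (unadjusted p = 0.00476, limma's adjusted p = 0.0805, n = 6 per group). It was 0.25 in batch 1 and 0.18 in batch 2, and leaving out single mice brought it past the threshold in 0 of 12 fits.

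Sgk1 lies on chromosome 10 (chr10:21882184-21999903, GRCm38, plus strand) and has 6 start windows in the RefSeq table. Of these, 1 holds the GRE palindrome and is shown for that reason (chr10:21993640-21993939, GRCm38.p6), 5′ to 3′, with GRE palindrome and hexamers in capitals.
Sgk1: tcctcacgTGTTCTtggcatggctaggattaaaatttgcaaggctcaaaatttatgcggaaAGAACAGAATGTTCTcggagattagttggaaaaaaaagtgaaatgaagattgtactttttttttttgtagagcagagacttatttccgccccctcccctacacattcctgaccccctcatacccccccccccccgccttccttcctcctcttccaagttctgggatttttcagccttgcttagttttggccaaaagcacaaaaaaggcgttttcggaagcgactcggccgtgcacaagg
The palindrome begins 189 bases before this start site. It was found in 16 of the 32851 windows, or 0.0487%, and the hexamer, which the palindrome contains, in 19% of them. The 16 windows belong to 14 genes, of which only Sgk1 and Pot1b were among the genes tested, and Pot1b, a telomere protein gene, differed by 0.0011 (SE 0.0517, limma's adjusted p = 0.997). The deposited values are sums per gene and do not show which start site was used.

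Dusp1 encodes the phosphatase MKP-1, which inactivates p38 and JNK kinases. It is induced by glucocorticoids and also, as an immediate early gene, by cell stress and inflammatory signals. It ran from -0.42 to 0.30 with a median of 0.033 in filtered air and from 0.31 to 1.14 with a median of 0.54 after ozone. All 6 ozone mice lay above every filtered-air mouse, but ozone mouse 5, at 0.31, exceeded filtered-air mouse 5, at 0.30, by little. Among all genes tested 3.53% had groups that did not overlap, and Dusp1 was the only 1 of the 8 to do so. Dusp1 rose by 0.66 (SE 0.147, 95% interval 0.34 to 0.97, limma's adjusted p = 0.0206, n = 6 per group), against 2.41% of all genes called higher. The rise was 0.62 in batch 1 and 0.69 in batch 2. It did not pass without filtered-air mouse 1 or ozone mouse 3, at adjusted p-values of 0.0501 and 0.0550 in limma, after quantile normalization (0.51, limma's adjusted p = 0.167), with the variance trend (adjusted p = 0.096) or in either batch alone (adjusted p = 0.273 and 0.254).

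The Dusp1 window on chromosome 17 (chr17:26508423-26508722, GRCm38.p6, minus strand; gene chr17:26505591-26508472) is shown because Dusp1 is the gene called higher among the 8. The CRE and its core are in capitals.
Dusp1: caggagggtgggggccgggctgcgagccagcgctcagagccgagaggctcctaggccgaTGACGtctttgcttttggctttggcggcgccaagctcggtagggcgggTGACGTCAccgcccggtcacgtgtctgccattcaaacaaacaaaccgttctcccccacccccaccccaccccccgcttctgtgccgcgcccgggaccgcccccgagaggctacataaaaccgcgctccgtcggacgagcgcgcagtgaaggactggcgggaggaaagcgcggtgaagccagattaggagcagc
The full CRE, TGACGTCA, begins 143 bases before the start site and occurs in 1.79% of all windows. A further core begins 191 bases before the start. No GRE palindrome or hexamer was among these letters. The RefSeq table held windows for 6 of the 8 genes, all but Nr3c1 and Zbtb16. In windows not shown, a GRE hexamer begins 185 bases before a Tsc22d3 start. Hexamers also begin 195 and 13 bases before other Sgk1 starts, and the Fkbp5 and Hsd11b1 windows held no GRE. Sequence outside these windows was not searched.

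**Figure D2:**
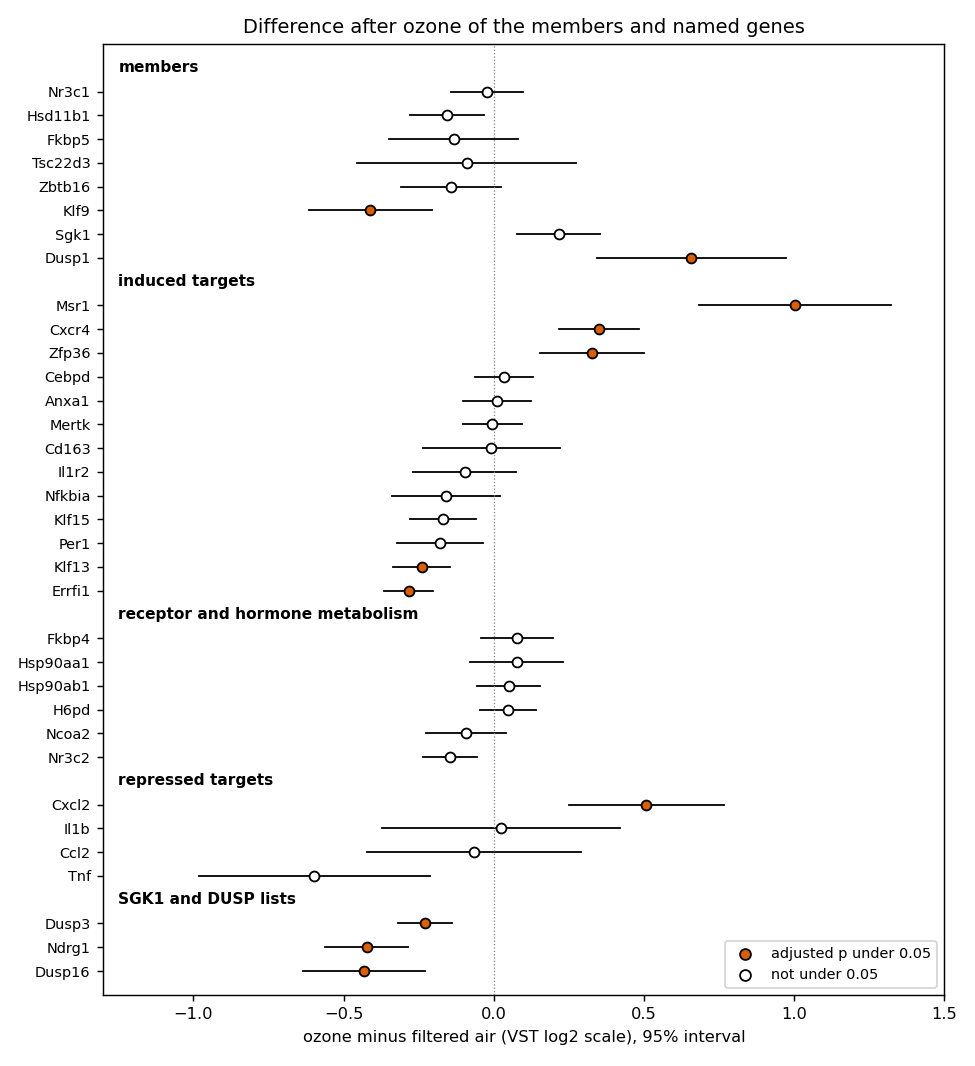
Ozone minus filtered air on the variance-stabilized log2 scale for the 8 genes and for named genes of the related lists; points are limma estimates, lines are 95% intervals before adjustment, and filled points have an adjusted p under 0.05. Dusp1 lies at 0.66 and Klf9 at -0.41, while the intervals of Nr3c1, Fkbp5, Tsc22d3 and Zbtb16 include 0.

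Other genes that glucocorticoids are known to induce were then read from a list of 50 that excludes the 8. Their median difference was 0.0065, with 26 above and 24 below 0. Of the 50, 3 rose and 2 fell, or 10%, beside 4.25% of all genes tested, and 20 had an unadjusted p under 0.05, beside 16.7% of all genes tested. Those that rose were Msr1, a scavenger receptor (1.00, SE 0.149, limma's adjusted p = 0.00209), Cxcr4, a chemokine receptor (0.35, SE 0.0627, adjusted p = 0.0062), and Zfp36, which encodes the mRNA-destabilizing protein tristetraprolin (0.33, SE 0.0814, adjusted p = 0.0354). Those that fell were Errfi1, an inhibitor of EGF receptor signalling (-0.28, SE 0.0378, limma's adjusted p = 0.00129), and Klf13, another Krüppel-like factor (-0.24, SE 0.0446, adjusted p = 0.00751). The Zfp36 call was lost on leaving out 1 of 7 mice, namely filtered-air mouse 2, 3, 4 or 6 or ozone mouse 3, 5 or 6 (0.27 to 0.34). It was also lost with RNA integrity as a covariate (limma's adjusted p = 0.0517), with no filter (adjusted p = 0.0543) and with the variance trend (adjusted p = 0.0514), and the Zfp36 difference was 0.11 in batch 1 and 0.54 in batch 2.

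Of the commonly used readouts on that list, Errfi1 and Zfp36 passed, as given above, and those named next did not. Per1, a clock gene under direct receptor control, differed by -0.18 (SE 0.0671, limma's adjusted p = 0.176) and 4 of 6 ozone mice lay below the whole filtered-air range. Klf15, a metabolic target, differed by -0.17 (SE 0.0512, limma's adjusted p = 0.0814). Nfkbia, the inhibitor of NF-kB, differed by -0.16 (SE 0.0839, limma's adjusted p = 0.374), and Il1r2, the interleukin-1 decoy receptor, by -0.097 (SE 0.0803, adjusted p = 0.625). Without filtered-air mouse 4 these were -0.094 for Nfkbia and -0.017 for Il1r2. The remaining named targets lay near 0. The scavenger receptor gene Cd163 differed by -0.0085 (95% interval -0.24 to 0.22), the efferocytosis receptor gene Mertk by -0.0045 (-0.10 to 0.094), the annexin gene Anxa1 by 0.011 (-0.10 to 0.12) and the transcription factor gene Cebpd by 0.034 (-0.064 to 0.13).

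Genes that act with the receptor showed no called change. Of 17 listed chaperones, co-chaperones, cofactors and the related mineralocorticoid receptor, 0 were called in limma, beside 4.25% of all genes tested, and 4 had an unadjusted p under 0.05, beside 16.7% of all genes tested. Their median difference was 0.034. The smallest p belonged to Nr3c2, the mineralocorticoid receptor gene, at -0.14 (SE 0.0418, limma's adjusted p = 0.0706), with 5 of 6 ozone mice below every filtered-air mouse, and it passed without the batch covariate (limma's adjusted p = 0.0423). The chaperone genes Hsp90aa1 and Hsp90ab1 differed by 0.076 (SE 0.0725) and 0.049 (SE 0.0490), the co-chaperone gene Fkbp4 by 0.077 (SE 0.0562) and the coactivator gene Ncoa2 by -0.093 (SE 0.0615), with adjusted p-values between 0.510 and 0.696 in limma. Of the 5 genes of hormone metabolism and transport tested besides Hsd11b1, 0 were called in limma and 1 had an unadjusted p under 0.05, beside 4.25% and 16.7% of all genes tested.

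Cytokine and enzyme genes that glucocorticoids are known to repress did not fall as a list. Of 20, 13 lay above and 7 below 0, with a median difference of 0.063, and 6 had an unadjusted p under 0.05, beside 16.7% of all genes tested. Only Cxcl2, a neutrophil chemokine gene, was called, beside 2.41% of all genes called higher, and it rose by 0.51 (SE 0.120, limma's adjusted p = 0.0281). It did not pass without filtered-air mouse 1 or 3 or ozone mouse 2 or 3 (0.45 to 0.50), or with the variance trend (limma's adjusted p = 0.0596). Tnf differed by -0.60 (SE 0.179, limma's adjusted p = 0.0813), with 5 of 6 ozone mice below every filtered-air mouse, and was called without ozone mouse 5 (-0.77, adjusted p = 0.00611). Il1b differed by 0.024 (SE 0.185) and Ccl2 by -0.065 (SE 0.166), with limma's adjusted p-values of 0.972 and 0.900.

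**Figure D3:**
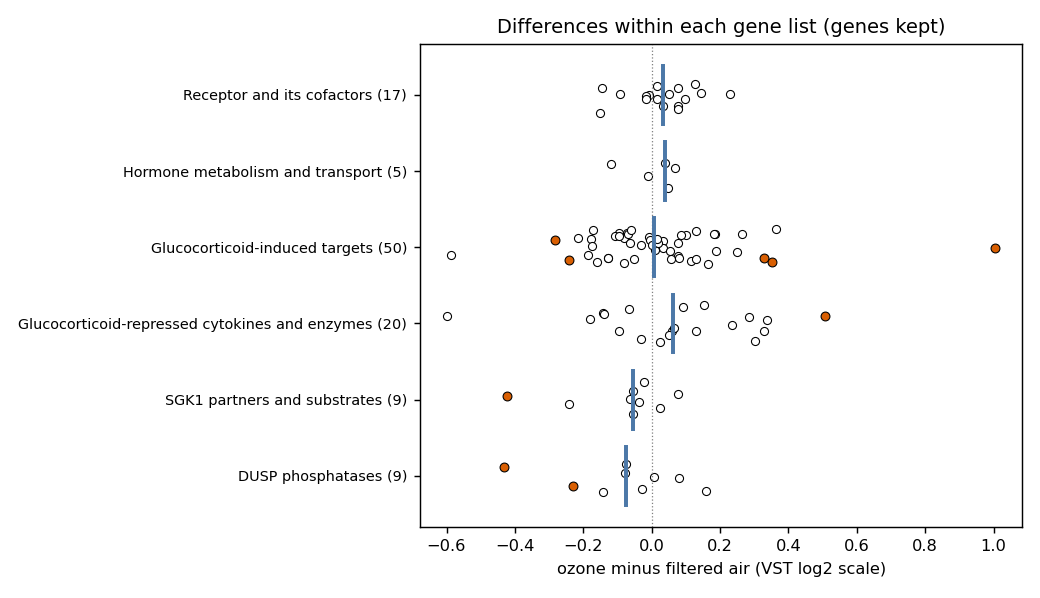
Ozone minus filtered air for each tested gene of 6 related lists, with the number of genes in brackets; blue bars are list medians and filled points have an adjusted p under 0.05 in limma. List medians lie between -0.076 and 0.063, and called genes occur on both sides of 0 among the induced targets.

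The partners of the kinase and the relatives of the phosphatase were read in the same way. Among 9 partners and substrates of Sgk1, Ndrg1, whose protein is phosphorylated by SGK1, fell by 0.42 (SE 0.0641, limma's adjusted p = 0.00247) with all 6 ozone mice below every filtered-air mouse, and the other 8 did not pass, beside 4.25% of all genes called. Among 9 other dual-specificity phosphatases, 2 fell and 0 rose, beside 1.84% and 2.41% of all genes tested. Dusp3 fell by 0.23 (SE 0.0423, limma's adjusted p = 0.00729) and Dusp16, a JNK phosphatase, by 0.43 (SE 0.0947, adjusted p = 0.0185), opposite to Dusp1. An unadjusted p under 0.05 was found for 2 of the 9 partners and 4 of the 9 phosphatases, beside 16.7% of all genes tested.

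Because Dusp1 is also an immediate early gene and Klf9 also a clock output and a Krüppel-like factor, 4 further lists were added after the values had been seen. Among 20 immediate early genes, 3 rose and 2 fell, beside 2.41% and 1.84% of all genes tested, and 11 had an unadjusted p under 0.05, beside 16.7%. The AP-1 gene Fos rose by 0.57 (SE 0.118, limma's adjusted p = 0.0136) and the stress-induced Atf3 by 0.37 (SE 0.0645, adjusted p = 0.00525), beside Zfp36 given above. Egr3 fell by 0.49 (SE 0.119, limma's adjusted p = 0.032) and Ier2 by 0.25 (SE 0.0582, adjusted p = 0.0262). The Egr3 call was lost without filtered-air mouse 2, 3 or 5 or ozone mouse 2, 3, 4 or 6 (-0.51 to -0.41), and the Ier2 call without filtered-air mouse 1, 2, 3 or 4 or ozone mouse 2 or 4 (-0.24 to -0.22). The Egr3 call was also lost with no filter (limma's adjusted p = 0.0541), in the robust fit (adjusted p = 0.0523) and with the variance trend (adjusted p = 0.0641), and the Fos call with the variance trend (adjusted p = 0.0517). The Fos difference was 0.31 in batch 1 and 0.83 in batch 2. The count of 5 called immediate early genes fell to 3 with no filter, 2 with the variance trend, and 0 after quantile normalization and in either batch alone. Of 8 heat shock genes 0 were called in limma and 2 had an unadjusted p under 0.05, beside 4.25% and 16.7% of all genes tested. They were led by the chaperone gene Hsph1 at 0.23 (SE 0.0672, adjusted p = 0.0702), which was called without filtered-air mouse 2 (0.28), without ozone mouse 1 (0.28) or without the batch covariate (0.23, limma's adjusted p = 0.0464).

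Of 18 clock genes, 13 had a negative difference, beside 10210 of all 19633 genes tested, and their median was -0.080. Only the repressor gene Cry2 was called, at -0.29 (SE 0.0692, limma's adjusted p = 0.0303), beside 4.25% of all genes called. On leaving out single mice it kept that call in 3 of 12 fits, those without filtered-air mouse 4, filtered-air mouse 5 or ozone mouse 2, and it lost it with the variance trend (limma's adjusted p = 0.0514). An unadjusted p under 0.05 was found for 5 of the 18, beside 16.7% of all genes tested. With RNA integrity as a covariate 2 clock genes were called. The hour at which lungs were collected is not given in the sources used here. Of 15 other Krüppel-like factor genes tested, 3 fell and 0 rose, beside 1.84% and 2.41% of all genes tested, and 7 had an unadjusted p under 0.05, beside 16.7%. Those that fell were Klf13, given above, Klf16 (-0.29, SE 0.0549, limma's adjusted p = 0.00866) and Klf10 (-0.34, SE 0.0858, adjusted p = 0.0392). On leaving out single mice the Klf10 call held only without filtered-air mouse 4 or ozone mouse 1 or 5, and it was also lost with no filter (limma's adjusted p = 0.0604) and with the variance trend (adjusted p = 0.0621).

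After quantile normalization, Errfi1, Msr1 and Cxcr4 kept their calls and the other 13 called genes named from the lists did not, each in the same direction as before. Msr1 did not pass with the variance trend (1.00, limma's adjusted p = 0.633), where Errfi1 and Cxcr4 did. As given above, both settings act on the ozone difference itself, so they cannot decide how firm these calls are. In batch 1 alone 14 of the 16 did not pass and in batch 2 alone all 16 did not, with 3 mice against 3.

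Markers of other cells were read beside these results. Of 75 tested markers in 12 lists, 0 were called in limma, beside 4.25% of all genes tested, and 13 had an unadjusted p under 0.05, beside 16.7%, among them 3 of 6 B cell markers. List medians ran from -0.23, for B cells with 6 of 6 lower, to 0.17, for monocytes and interstitial macrophages with 7 of 8 higher. The mean level of the latter list ran from -0.0072 to 0.33 after ozone and from -0.23 to 0.29 in filtered air. Their part in the results was not tested. Without filtered-air mouse 4, Dusp1 was called and Klf9 was not, and the same held without ozone mouse 4. Both were called without filtered-air mouse 5 and without ozone mouse 6.

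The 8 genes did not vary as a block among mice of the same group. Deviations from the group means were compared over 12 mice in all 28 pairs by permutation. Taking out the group means ties the deviations within each group. Permuting them freely over all 12 mice ignores this, so the permutation p-values are likely too small. Dusp1 and Sgk1 varied together (Pearson r = 0.866, permutation p = 0.00014, adjusted over 28 pairs p = 0.00392; Spearman rho = 0.839, permutation p = 0.00105, adjusted p = 0.0202). Their r was 0.98 in batch 1 and 0.756 in batch 2, and 0.801 without the 2 mice farthest from the median in Sgk1. Nr3c1 and Hsd11b1 varied in opposite directions (r = -0.848, permutation p = 0.00038, adjusted p = 0.00532; rho = -0.811, permutation p = 0.00213, adjusted p = 0.0202), with r of -0.914 and -0.854 in the batches and -0.771 without the 2 farthest mice in Nr3c1.

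Tsc22d3 and Klf9 had an r of 0.735 (permutation p = 0.0065, adjusted p = 0.0607) and a rho of 0.811 (permutation p = 0.00216, adjusted p = 0.0202), with r of 0.752 and 0.8 in the batches and 0.693 without the 2 farthest mice in Tsc22d3. The rank measure passed and the linear one did not. Fkbp5 and Zbtb16 had an r of 0.678 (permutation p = 0.015, adjusted p = 0.105) and a rho of 0.594 (permutation p = 0.0457, adjusted p = 0.32), with r of 0.954 in batch 1 and 0.101 in batch 2 and 0.658 without the 2 farthest mice in Fkbp5. This relation did not pass after adjustment. Fkbp5 and Tsc22d3, the canonical readouts of the receptor, showed no detectable relation (r = -0.278, permutation p = 0.384, adjusted p = 0.811; rho = -0.28, permutation p = 0.382, adjusted p = 0.71), with r of -0.6 and 0.185 in the batches and -0.582 without the 2 farthest mice in Fkbp5.

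**Figure D4:**
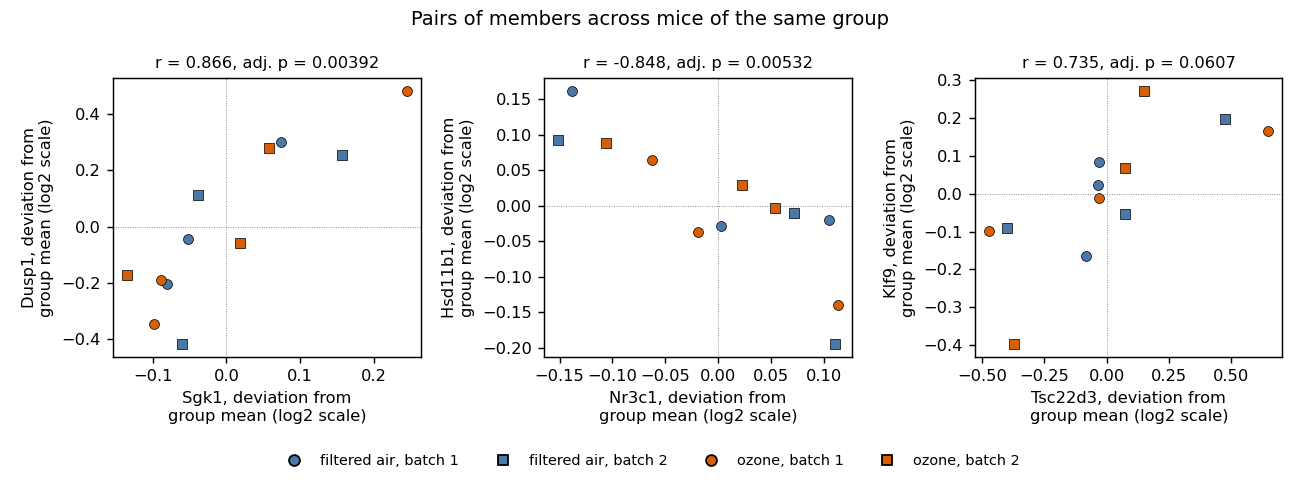
Deviations from the group mean on the log2 scale for 3 pairs of genes; each point is a mouse, coloured by exposure and shaped by flow-sort batch, and titles give Pearson r over 12 mice with the permutation p adjusted over 28 pairs. Dusp1 rises with Sgk1 (r = 0.866), Hsd11b1 falls with Nr3c1 (r = -0.848), and Klf9 rises with Tsc22d3 (r = 0.735).

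As a description, the genes whose deviations were most like those of 3 of the 8 were found among all genes tested, so that their Pearson r over 12 mice is the highest of many. For Fkbp5 they were Baiap2l2, Rmdn1 and Gm13864, with r of 0.919, 0.918 and 0.89. For Tsc22d3 they were Irgc1, Zc3h14 and Pmvk, with r of 0.955, 0.943 and 0.934. For Nr3c1 they were Strn, Virma and Zdhhc17, with r of 0.976, 0.946 and 0.939. Of these 9 genes, Irgc1 alone was called, at -0.30 (SE 0.0427, limma's adjusted p = 0.00184).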

How the data were processed

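RNA was measured in alveolar macrophages of 6 mice exposed to ozone and 6 exposed to filtered air. The libraries were stranded, from mRNA, and read as 50 bp pairs, per the labels' protocols. Per the submitters' processing notes, cutadapt, STAR 2.7.7a, Salmon 1.5.2, DESeq2 1.26.0, R 3.6.0, limma 3.42.2 and the build mm10 were used, and their roles are not given in the sources used here. The deposited values are on a log2 scale, and per the deposited file's name they are variance-stabilized and batch-corrected. Their filtered-air mean is 0 in every gene, and they lie between -1.31 and 1.26. Read totals were not kept, so no counting interval is given and each value's precision is read from the spread between mice. All 12 columns matched a sample title.

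Genes were kept where at least 6 of 12 mice lay above the lowest value shared by mice of their flow-sort batch (tolerance 1e-06), which left 19633 genes and excluded 5811. A further 29847 genes, which had the same value in all 12 mice, were not tested. Differences were fitted with limma 3.58.1 in R 4.3.3 on the whole table, with flow-sort batch as a covariate and without a variance trend, and p-values were adjusted after Benjamini and Hochberg, with calls made under 0.05. Data were simulated with the spread of these 19633 genes, and changes were placed in genes with an SD near the median. The ozone comparison recovered 76% of 100 genes changed by 0.25 and 100% of 100 changed by 0.5, with 9 false calls. The 8 genes had larger SDs between mice of the same group, from 0.101 to 0.347 against a median of 0.0772. These shares therefore do not hold for the 8 genes. The numbers 1 to 6 of the mice occur in both groups but mark different animals, so mice were not paired. Lists were described by counts and medians. Beside the 8 genes, the named genes are 19 chosen readouts, in each list every called gene (at most 8) or else the gene with the smallest p, and for Fkbp5, Tsc22d3 and Nr3c1 the 3 most similar genes. In the list of hormone metabolism and transport the smallest p was that of Hsd11b1, so this rule named no further gene there. The 8 genes and the lists were chosen with earlier results of these data known, and 4 lists were added after the values reported here had been seen. One listed name (Ctgf) was matched through a RefSeq synonym (Ccn2). Start windows, gene positions and sequences are from RefSeq (GRCm38.p6, the same assembly as mm10), and motifs were searched on both strands. Permutation p-values for pairs of genes are two-sided and used 100000 permutations in scipy 1.17.1. Alternatives were no batch covariate, no filter or a stricter filter, a variance trend, quantile normalization, RNA integrity as a covariate, a replicate block, a robust fit, each batch alone, and each mouse left out. The variance trend used each gene's mean over the 12 mice, which follows its ozone difference because the filtered-air mean is 0. Quantile normalization was applied to the distances from the filtered-air mean.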

Additional observations from a re-analysis of the deposited data

Results flagged for a closer look

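A mouse stood far from the 5 others of its group in 3 of 84 combinations of gene and group examined (Dixon's ratio above 0.625), where chance gives about 4.2. Filtered-air mouse 5 was the highest of its group in Fkbp5, at 0.297 (ratio 0.736), with the next mouse at -0.018. Without it the Fkbp5 difference was -0.067. Ozone mouse 5 was the highest of its group in Cd163, at 0.343 (ratio 0.667), with the next mouse at 0.0045. Filtered-air mouse 4 was the lowest of its group in Klf10, at -0.335 (ratio 0.738), with the next mouse at 0.0046.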

How the results depend on the processing

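Among the 8 genes, 153 of 176 differences under the alternatives kept their direction and their side of the threshold. This share is carried by genes that had no call to lose. A further 15 were lost calls, all of Dusp1 or Klf9. On leaving out 1 mouse, Klf9 lost its call in 5 of 12 fits and Dusp1 in 2 of 12. No batch covariate, no filter, the stricter filter, RNA integrity as a covariate and the robust fit left the calls of Dusp1 and Klf9 in place, but no filter ended those of Zfp36, Egr3 and Klf10, RNA integrity that of Zfp36 and the robust fit that of Egr3. The variance trend ended both, at unchanged differences of 0.66 (adjusted p = 0.096 in limma) and -0.41 (adjusted p = 0.0502), which gave 0 called among the 8, 0 higher and 0 lower, 3 called induced targets, 0 called repressed targets and 221 genes called lower. Quantile normalization gave 0.51 for Dusp1 and -0.33 for Klf9, with 0 called among the 8, 0 higher and 0 lower, 3 induced targets, 0 repressed targets, 0 SGK1 partners, 0 DUSP phosphatases and 171 genes called, 106 higher and 65 lower. Batch 1 alone gave 0.62 and -0.37, with 0 called, 0 higher and 0 lower, 2 induced targets, 0 in the repressed, SGK1 and DUSP lists, and 90 genes called, 71 higher and 19 lower. Batch 2 alone gave 0.69 and -0.45, with 0 called in the 8 genes, in each of those lists and over all genes, 0 higher and 0 lower; both batch fits use fewer mice. Without the batch covariate 1 gene of the receptor list was called, Nr3c2 (-0.14, limma's adjusted p = 0.0423), and Hsph1 of the heat shock list also passed (0.23, adjusted p = 0.0464). The variance trend and quantile normalization act on the ozone difference itself, as given above, so these 2 fits cannot decide how firm the calls are. The cause was not tested in the other cases.

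Leaving out 1 mouse gave 538 to 751 genes called, 212 to 312 of them lower, and 0 to 3 of the 8, with 0 to 1 higher and 0 to 2 lower. Dusp1 ranged from 0.55 to 0.73, Klf9 from -0.47 to -0.32, Hsd11b1 from -0.20 to -0.12, Nr3c1 from -0.056 to 0.0019 and Tsc22d3 from -0.24 to 0.014. The receptor list held 0 to 1 called genes, the repressed list 0 to 2 and the SGK1 list 1 to 2. Genes near 0 changed sign: Anxa1 (-0.011 to 0.052), Mertk (-0.027 to 0.017), Cd163 (-0.086 to 0.069), Il1b (-0.14 to 0.16), Ccl2 (-0.18 to 0.029) and the r of Fkbp5 with Tsc22d3 (-0.492 to 0.104). In batch 1 alone the sign also changed for Tsc22d3 (0.0086), Cd163 (0.096), Ccl2 (0.036) and Cebpd (-0.011), in batch 2 alone for Il1b (-0.056), Anxa1 (-0.039), Mertk (0.0071), Hsp90ab1 (-0.0059) and the r of Fkbp5 with Tsc22d3 (0.185), and after quantile normalization for Cd163 (0.00199). Of the 16 called genes named beside the 8, 13 did not pass after quantile normalization and 7 with the variance trend, Msr1 among the latter (1.00, limma's adjusted p = 0.633), all in the same direction.

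Deviations of same-numbered mice correlated at -0.0026 to 0.284, with 4 of 6 above 0.1 and 3 of 6 ozone mice correlating best with their own number. With the replicate block Sgk1 passed at an unchanged difference of 0.22 (limma's adjusted p = 0.0353), which gave 2 higher among the 8, and the repressed list held 2 called genes; the calls of Dusp1 and Klf9 stayed and that of Ier2 was lost (-0.25, adjusted p = 0.0535).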
